A study of Mus musculus with 12 samples.

Results

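Immediate early genes are switched on within minutes of a stimulus, before any new protein has to be made. The 9 genes described here are Fos, Jun, Junb, Egr1, Ier2, Ier3, Ier5, Nr4a1 and Btg2, measured in 2 hindlimb muscles, soleus and tibialis anterior (TA), of mice with and without a knockout of H6pd. The members were all probe sets that the platform annotation assigns to a single one of these 9 symbols. There were 13 such probe sets among the 45101 on the array, and 0 further probe sets paired a member with another symbol. The genes are 9 of the 18193 with a probe set of their own. KO and WT were each sampled in soleus and in TA, which gives 4 groups of 3 Affymetrix arrays, all from mice 4 weeks old. KO stands for the knockout of H6pd, which encodes hexose-6-phosphate dehydrogenase, an enzyme that makes NADPH inside the endoplasmic reticulum, and WT for wild type. The labels call the arrays of a group biological replicates and number them 1 to 3. The strain, the sex, the allele, the time of day and the interval between death and freezing are not given in the labels, nor is whether both muscles of a number came from 1 mouse. The labels name no treatment. The design text states that the mice were weaned, that histology showed no overt myopathy and that the muscles were chosen for their different fibre types.

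Transcription of these genes is driven by factors that are already present in the cell. Serum response factor with its ETS partners acts through CArG boxes, and CREB acts through cAMP response elements, both under the control of MAP kinases, calcium and cAMP. The transcripts are short-lived, so that their level at the moment of sampling follows recent events such as contraction, stretch, hormones or handling of the tissue. Fos, Jun and Junb encode subunits of the transcription factor AP-1. Egr1 encodes a zinc finger transcription factor and Nr4a1 an orphan nuclear receptor that responds to exercise and adrenergic signals in muscle. Btg2 encodes an antiproliferative protein that promotes mRNA deadenylation. Ier2, Ier3 and Ier5 were named as immediate early response genes; the protein of Ier3 modulates survival signalling.

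RefSeq promoters were listed for 7 of the 9 genes on build GRCm38.p6. The 4 shown belong to the genes whose groups are described at most length below, Fos for its spread between replicates and Nr4a1, Btg2 and Ier5 for their difference between the muscles. Each is the 250 bases before the annotated start, on the gene's own strand, and capitals mark the cAMP response element TGACGTCA or its core TGACG in either orientation (CGTCA on the other strand). The Fos window is chr12:85473640-85473889 on the plus strand, directly before the gene at chr12:85473890-85477274. That of Nr4a1 is chr15:101266596-101266845 on the plus strand; the gene is annotated at chr15:101253902-101274795, so that this start lies within the annotated span. That of Btg2 is chr1:134079156-134079405 on the minus strand, before the gene at chr1:134074865-134079155. That of Ier5 is chr1:155099637-155099886 on the minus strand, before the gene at chr1:155096367-155099636.
Fos: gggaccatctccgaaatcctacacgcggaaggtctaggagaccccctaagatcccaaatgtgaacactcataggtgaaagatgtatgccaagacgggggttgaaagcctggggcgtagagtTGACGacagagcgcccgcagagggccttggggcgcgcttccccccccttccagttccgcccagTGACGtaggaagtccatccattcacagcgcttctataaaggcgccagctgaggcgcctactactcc
Nr4a1: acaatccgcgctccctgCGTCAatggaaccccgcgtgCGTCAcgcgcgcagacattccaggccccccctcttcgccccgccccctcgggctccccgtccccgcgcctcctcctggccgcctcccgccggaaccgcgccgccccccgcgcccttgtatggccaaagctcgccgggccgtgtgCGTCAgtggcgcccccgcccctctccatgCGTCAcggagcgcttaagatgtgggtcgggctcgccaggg
Btg2: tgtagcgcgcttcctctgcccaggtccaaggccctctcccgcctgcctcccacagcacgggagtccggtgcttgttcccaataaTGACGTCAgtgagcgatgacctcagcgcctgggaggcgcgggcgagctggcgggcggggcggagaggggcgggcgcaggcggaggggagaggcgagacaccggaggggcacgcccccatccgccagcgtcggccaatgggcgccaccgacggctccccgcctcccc
Ier5: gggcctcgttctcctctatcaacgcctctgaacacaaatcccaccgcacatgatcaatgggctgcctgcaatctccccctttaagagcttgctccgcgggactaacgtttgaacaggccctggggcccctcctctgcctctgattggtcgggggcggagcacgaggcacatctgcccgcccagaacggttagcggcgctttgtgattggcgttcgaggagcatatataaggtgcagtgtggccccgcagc
Fos held 2 core sites and Nr4a1 held 4. Btg2 held 1 full element, whose 2 core sites overlap, and Ier5 held 0. Searched on both strands of the 7 windows, the core site was present in 4, the full element in 1, the GC box GGGCGG in 6, the AP-1 site TGANTCA in 0 and a CArG box in 0. Among all 32841 RefSeq promoters of the same length, 17.8% held the core site, 1.55% the full element, 32.7% the GC box, 6.75% the AP-1 site and 1.47% a CArG box. These are exact letter matches within 250 bases and were not tested for binding. Sites farther upstream or with a mismatch were not counted, so a count of 0 does not mean that a gene lacks the site. Egr1 and Ier2 had no listed promoter.

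The targeted gene and the tissue labels were checked before the members were read. The single H6pd probe set lay at a mean log2 signal of 4.90 ± 1.04 (SD, n = 3) in KO soleus and 6.27 ± 0.78 in WT soleus, and at 6.96 ± 0.50 in KO TA and 6.85 ± 0.93 in WT TA. Neither difference passed the test (adjusted p = 0.680 in soleus and 0.972 in TA, limma with Benjamini-Hochberg adjustment), and no source used here says whether the probe set lies in the deleted part, so it does not check the KO labels. The slow fibre genes Myh7, Tnni1 and Tnnt1 had group means of 14.56 to 15.46 in soleus and 6.01 to 8.80 in TA, and the fast myosin Myh4 had means of 11.46 to 11.57 in soleus and 15.84 to 15.91 in TA. Principal component 1, with 40.4% of the variance, separated the muscles. The next held 23.9% and separated the arrays numbered 3, at -59.2 to -42.1, from the other arrays, at 11.7 to 34.3, in all 4 groups. Results are therefore also given without the 4 arrays numbered 3. The number of arrays limits the precision, and the smallest p that exact permutation can give with 3 against 3 is 0.1.

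Signals are log2 values after quantile normalization, and each difference is a log2 difference with the standard error (SE) of a linear model over all 12 arrays. "Called" means an adjusted p under 0.05 after Benjamini-Hochberg adjustment over the 27497 probe sets kept by a filter on dim signals. Of the 13 member probe sets, 12 were kept. Jun and Btg2 each had a brighter and a dimmer probe set, Ier5 had 3, and the other 6 genes had 1 each. The 1 left out, an Ier5 probe set, lay at 2.52 to 2.65 on all arrays. Junb lay at 2.93 to 3.48 and another Ier5 probe set at 3.51 to 4.64, both below the log2 of 5 used here as the mark of low signal. Of all values in the table, 47.9% were below log2 3, so the Junb signals are not read as levels, and Junb and the 2 dim Ier5 probe sets are given no difference. The remaining 10 probe sets cover 8 genes and have means of 6.95 to 10.31 over the 12 arrays. A signal depends on the probes, so levels of different genes are not compared.

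**Figure D1:**
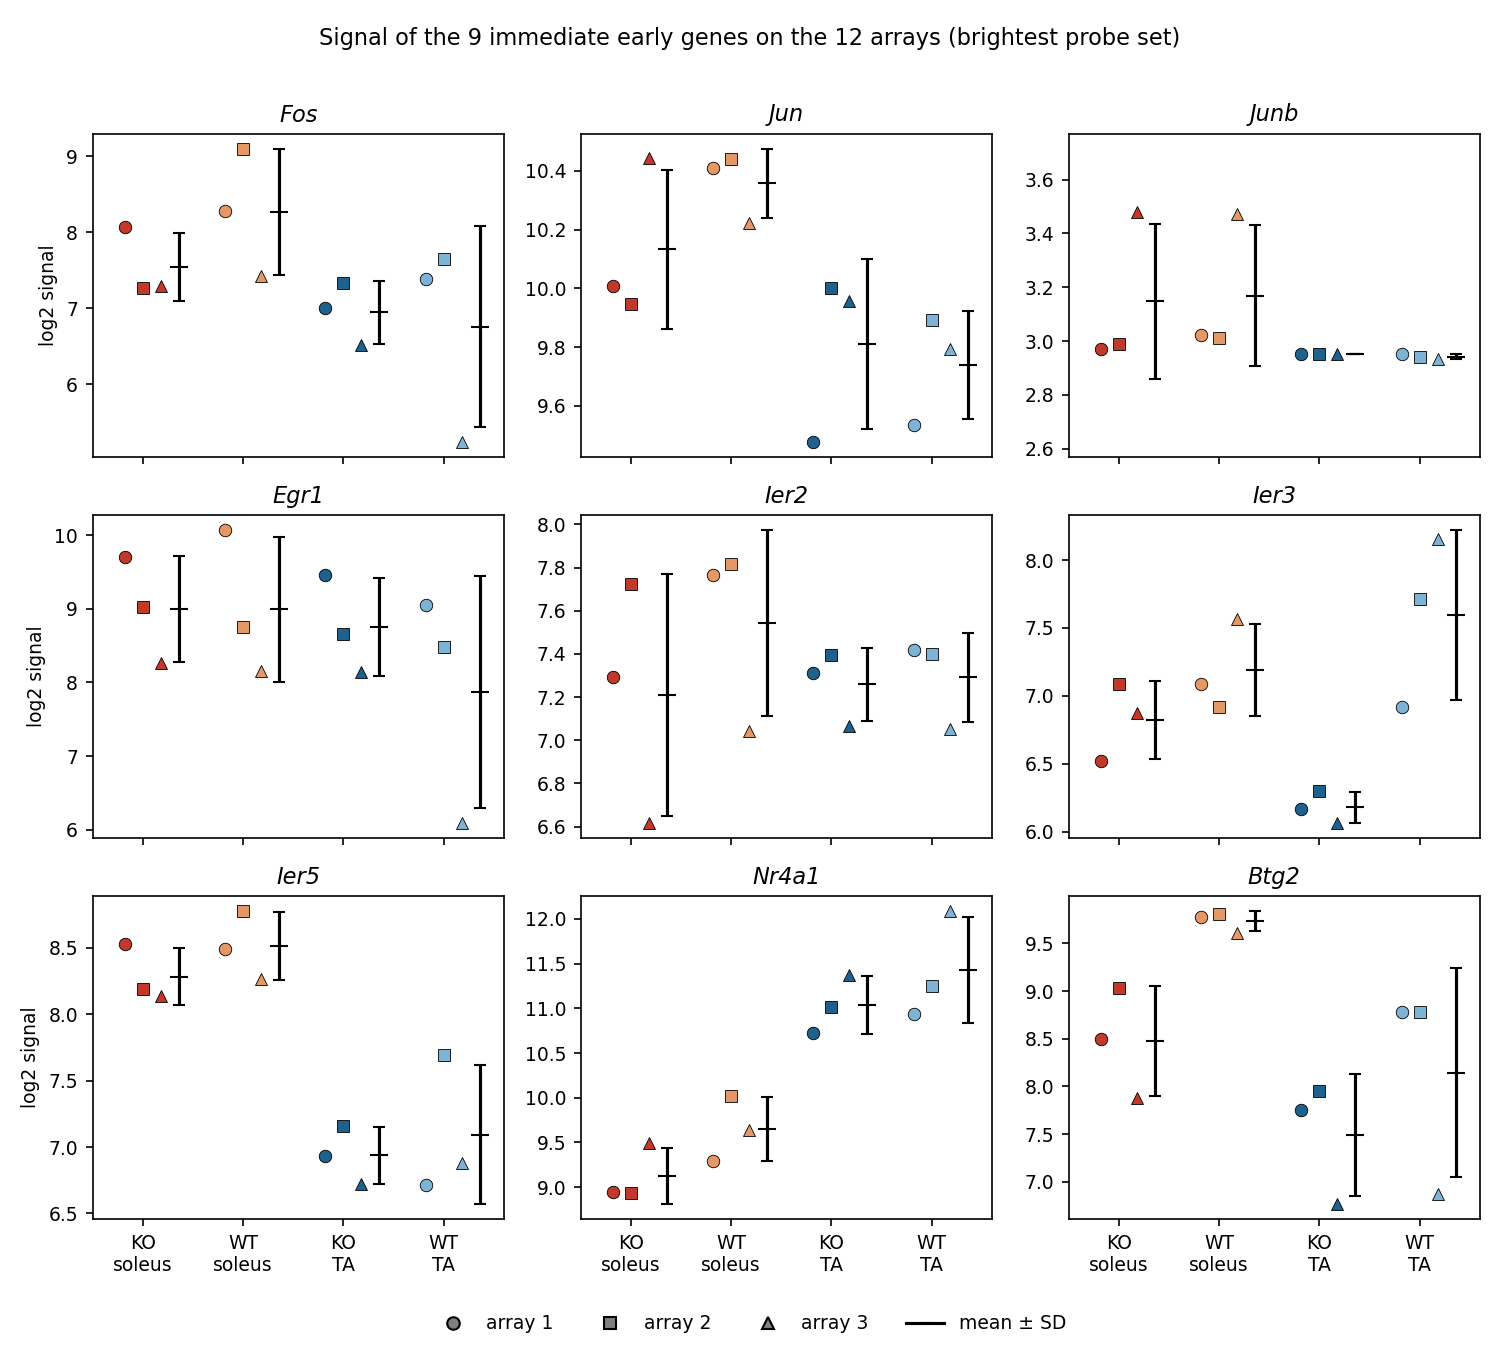
Log2 signal of the brightest probe set of each of the 9 genes (one panel each, with its own vertical axis) on the 12 arrays, by group, with circles, squares and triangles for arrays 1, 2 and 3 and bars for the group mean ± SD (n = 3). Nr4a1 was higher and Ier5 lower on every TA array than on every soleus array. Fos, Egr1 and Ier2 overlapped between the muscles of a genotype and between the genotypes of a muscle. Junb lay near the floor of the table.

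Between the muscles 4 of the 9 genes differed. Nr4a1 was higher in TA, and Ier5, Btg2 and Jun were higher in soleus, in each case in the average over both genotypes. Jun was called in that average only. Of the 12 member probe sets tested, 3 were called between WT soleus and WT TA, where 6.91% of all probe sets were called. Between KO soleus and KO TA 2 were called, against 5.33% of all, and in the average over the genotypes 6 were called, against 15.2% of all. Of these 5 were higher in soleus, as were 6.67% of all, and 1 was lower, as were 8.53%. The 5 include both probe sets of Jun and of Btg2, and the members were chosen with earlier results of these data known. With median centring the 1835 higher and 2345 lower probe sets of all became 2700 and 1258. The median soleus minus TA difference of the 12 was 0.60 in WT, 0.46 in KO and 0.54 in the average, and over the 10 above low signal it was 0.87, 0.62 and 0.64; the medians of all probe sets were -0.02, -0.01 and -0.02. The WT and KO comparisons use different arrays, whereas the average uses all of them and is no further evidence. In whole muscle, fewer cells of a type and less RNA per cell cannot be told apart, and fibre types and other cells differ between soleus and TA. The summed endothelial markers (all 9 above log2 5) reached 11.88 to 12.23 in WT soleus and 11.55 to 11.79 in WT TA, and overlapped in KO, at 11.52 to 12.01 and 11.72 to 11.89. The macrophage and myeloid markers (10 of 13 above log2 5) reached 11.69 to 12.16 in WT soleus and 10.84 to 11.67 in WT TA, and overlapped in KO, at 11.59 to 12.50 and 10.71 to 12.43. Of the adipocyte markers 3 were tested and all were higher in soleus, with a median difference of 1.47 in WT and 1.23 in KO, and Adipoq was called in WT (4.61, adjusted p = 0.0318). Of the 6 tendon markers 4 were higher in WT soleus (median 0.73, 0 called) and 6 in KO soleus (median 1.18, 2 called). Of all genes, 8.64% and 7.09% were called there. In the average all 6 were higher in soleus, with a median of 0.76, and 3 were called, against 19% of all genes. Of these 3, Mkx had low signal, with group means of 3.48 to 4.56. The summed lymphocyte markers (1 of 7 above log2 5) ran the other way in WT, at 6.71 to 7.30 in soleus and 10.65 to 11.08 in TA. In KO they overlapped, at 6.97 to 7.50 and 7.22 to 8.32. The WT difference lay with the immunoglobulin gene Ighm (-4.89, adjusted p = 0.0005). The part of these cells in the muscle differences was not tested.

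Nr4a1 lay at 8.94, 8.94 and 9.49 on the KO soleus arrays, at 9.29, 10.02 and 9.64 on the WT soleus arrays, at 10.72, 11.01 and 11.37 on the KO TA arrays and at 10.94, 11.25 and 12.09 on the WT TA arrays. Every TA array was above every soleus array. Soleus was lower than TA, with a soleus minus TA difference of -1.78 (SE 0.31, 3.43-fold, adjusted p = 0.0097) in WT and of -1.91 (SE 0.31, 3.76-fold, adjusted p = 0.0081) in KO. The groups ran from KO soleus at 9.12 ± 0.32 through WT soleus at 9.65 ± 0.36 and KO TA at 11.03 ± 0.32 to WT TA at 11.43 ± 0.59 (mean ± SD, n = 3). Neighbours of the same muscle overlapped, and the step lay between the muscles. Taken array number by array number, the WT difference was -1.65, -1.24 and -2.45 and the KO difference -1.78, -2.08 and -1.88 for numbers 1, 2 and 3. The average, -1.84 (adjusted p = 0.0006), was called in all 23 alternative fits and ranged from -1.97 to -1.68. The WT difference alone was called in 17 of 18; fitted on the WT arrays only, its adjusted p was 0.0660. Nr4a3, the paralogue of Nr4a1 and a gene picked out after its values were seen, was also higher in TA. It lay at 3.77 to 7.32 in KO soleus, 4.96 to 6.06 in WT soleus, 7.70 to 9.21 in KO TA and 6.78 to 8.88 in WT TA, with an average difference of -2.64 (SE 0.61, adjusted p = 0.0176).

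Ier5, whose product is a regulator of the heat shock factor HSF1, showed the opposite order. Its bright probe set lay at 8.53, 8.19 and 8.14 in KO soleus, 8.49, 8.78 and 8.27 in WT soleus, 6.93, 7.16 and 6.72 in KO TA and 6.71, 7.69 and 6.88 in WT TA. Every soleus array was above every TA array, and the genotypes of a muscle overlapped. Soleus exceeded TA by 1.42 (SE 0.26, 2.67-fold, adjusted p = 0.0110) in WT and by 1.35 (SE 0.26, 2.54-fold, adjusted p = 0.0159) in KO. By array number the differences were 1.78, 1.08 and 1.39 in WT and 1.60, 1.03 and 1.41 in KO. The average of 1.38 (adjusted p = 0.0010) was called in all 23 alternatives. Without the arrays numbered 3 the WT and KO differences were 1.43 and 1.31 with adjusted p of 0.0629 and 0.0884, and the KO call was also lost without KO soleus replicate 1 (adjusted p = 0.0698) or KO TA replicate 3 (0.0546).

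Btg2 was higher in soleus on both of its probe sets. The brighter lay at 8.50, 9.03 and 7.88 in KO soleus, 9.78, 9.81 and 9.61 in WT soleus, 7.75, 7.95 and 6.76 in KO TA and 8.77, 8.78 and 6.88 in WT TA. The dimmer lay at 8.18, 7.65 and 7.91, at 8.36, 9.09 and 9.44, at 7.39, 6.83 and 6.91 and at 7.70, 7.59 and 7.64 in the same order of groups. In WT, both had every soleus array above every TA array; in KO, the brighter overlapped and the dimmer did not. The dimmer differed by 1.32 (SE 0.27, adjusted p = 0.0183) in WT and by 0.87 (SE 0.27, adjusted p = 0.101) in KO, and the brighter by 1.59 (SE 0.52, adjusted p = 0.101) and 0.98 (SE 0.52, adjusted p = 0.356). In the average both were called, at 1.09 (adjusted p = 0.0044) and 1.29 (adjusted p = 0.0437). The average of the dimmer was called in all 22 alternatives that held it, that of the brighter in 14 of 23. In the fits that left out 1 array the brighter was called in 4 of 12, without KO soleus replicate 3 or any of the WT TA replicates, and had adjusted p up to 0.0910 in the others. The WT call of the dimmer was lost without WT soleus replicate 2 (adjusted p = 0.0691), WT TA replicate 1 (0.0516) or WT TA replicate 2 (0.0581), and without the arrays numbered 3 (1.08, adjusted p = 0.115).

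Jun differed by less. The brighter probe set lay at 10.01, 9.95 and 10.44 in KO soleus, 10.41, 10.44 and 10.22 in WT soleus, 9.48, 9.9998 and 9.96 in KO TA and 9.54, 9.89 and 9.79 in WT TA. The dimmer lay at 8.70, 8.26 and 8.80, at 9.17, 9.53 and 8.95, at 7.79, 7.99 and 8.07 and at 8.42, 8.69 and 8.80. In WT, soleus was above TA on every array for both probe sets, by 0.62 (SE 0.18, adjusted p = 0.0694) and 0.58 (SE 0.19, adjusted p = 0.101). In KO the brighter differed by 0.32 (SE 0.18, adjusted p = 0.379) with overlap. The dimmer differed there by 0.64 (SE 0.19, adjusted p = 0.0936) without overlap. Neither was called within a genotype. Averaged over the genotypes the differences were 0.47 (SE 0.13, adjusted p = 0.0338) and 0.61 (SE 0.14, adjusted p = 0.0154). The dimmer kept its call in all 22 alternatives. The brighter kept it in 14 of 23 and in 5 of 12 fits that left out 1 array, with adjusted p up to 0.0772. The call was lost without KO soleus replicate 1 or 3, WT soleus replicate 1 or 2, KO TA replicate 1, or WT TA replicate 1 or 3.

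Fos and Egr1 had means that were higher in soleus but were not called. Fos lay at 8.07, 7.27 and 7.30 in KO soleus, 8.28, 9.10 and 7.43 in WT soleus, 7.0, 7.33 and 6.51 in KO TA and 7.38, 7.65 and 5.23 in WT TA. The soleus minus TA difference was 1.51 (SE 0.63, adjusted p = 0.177) in WT and 0.60 (SE 0.63, adjusted p = 0.687) in KO. By array number it was 0.90, 1.45 and 2.19 in WT and 1.07, -0.06 and 0.79 in KO. Egr1 lay at 9.70, 9.02 and 8.26 in KO soleus, 10.07, 8.75 and 8.15 in WT soleus, 9.47, 8.66 and 8.14 in KO TA and 9.05, 8.48 and 6.09 in WT TA, and all groups overlapped. Its differences were 1.12 (SE 0.78, adjusted p = 0.408) in WT and 0.24 (SE 0.78, adjusted p = 0.923) in KO.

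Ier2 and Ier3 showed no common direction between the muscles. Ier2 lay at 7.29, 7.73 and 6.61 in KO soleus, 7.77, 7.82 and 7.04 in WT soleus, 7.31, 7.40 and 7.07 in KO TA and 7.42, 7.40 and 7.05 in WT TA. Its soleus minus TA difference was 0.25 (SE 0.29, adjusted p = 0.634) in WT and -0.05 (SE 0.29, adjusted p = 0.965) in KO, and the KO value turned positive on the deposited scale (0.07) and with median centring (0.09). Ier3 lay at 6.52, 7.09 and 6.87 in KO soleus, 7.09, 6.92 and 7.57 in WT soleus, 6.17, 6.30 and 6.07 in KO TA and 6.92, 7.71 and 8.16 in WT TA. The KO soleus arrays were all above the KO TA arrays, by 0.65 (SE 0.30, adjusted p = 0.281), and the WT muscles overlapped, with a difference of -0.41 (SE 0.30, adjusted p = 0.439).

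The replicate number was checked as a block, because arrays of equal number deviated together in both muscle comparisons. The block raised the share of all probe sets called between the WT muscles to 13.4% and in the average over the genotypes to 24.9%. With it, 5 members were called between the WT muscles, where Jun (brighter probe set, adjusted p = 0.0422) and Btg2 (brighter, adjusted p = 0.0166) were added. In the average over the genotypes 7 were called, with Fos added at 1.06 (adjusted p = 0.0399; 0.134 without the block).

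**Figure D2:**
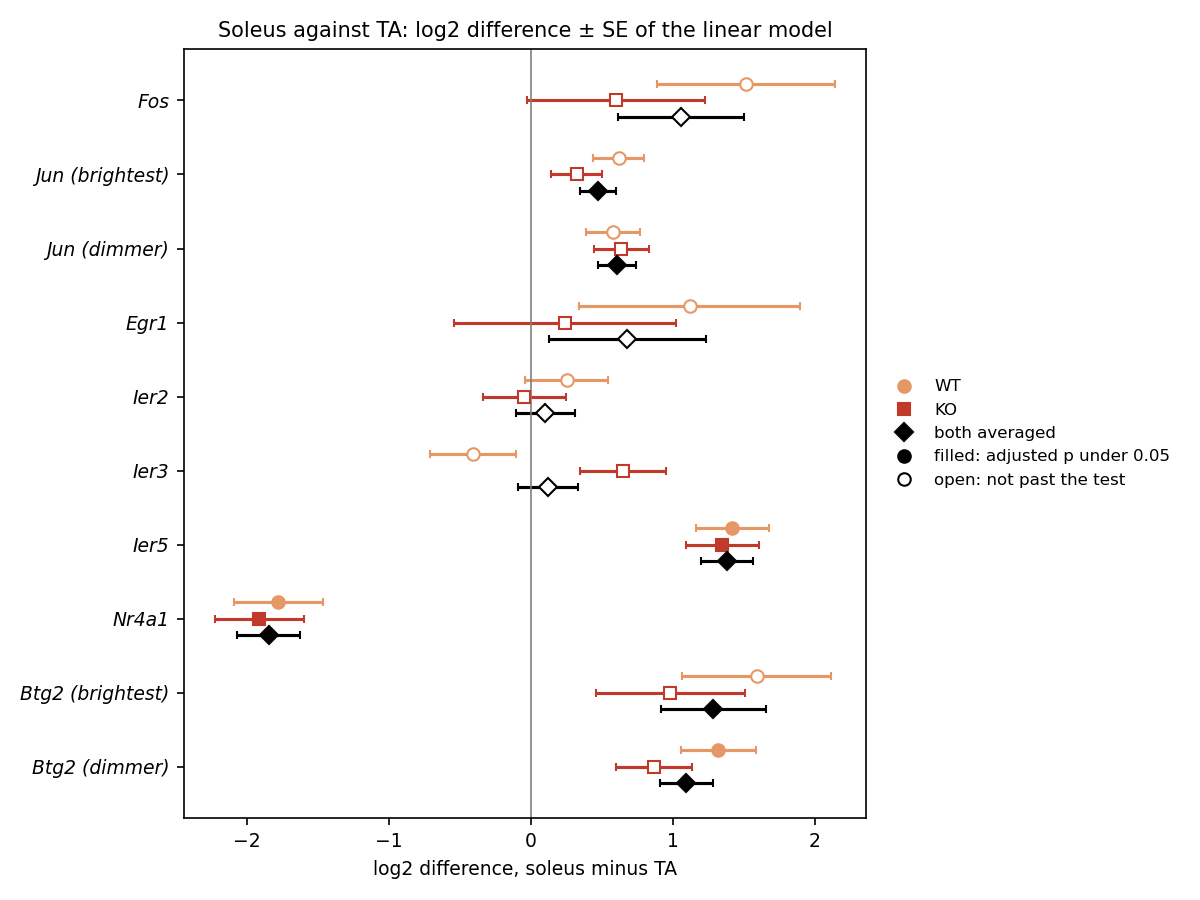
Soleus minus TA difference (log2, horizontal axis) of the 10 member probe sets above low signal, as estimate ± SE of the linear model, for WT (circles), KO (squares) and the average over both (diamonds), filled where called. Nr4a1 lies at -1.91 to -1.78 and Ier5 at 1.35 to 1.42, and the bars of Fos and Egr1 are the widest.

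The comparison of KO with WT asks whether loss of H6pd went with a change in these genes in either muscle. No member was called in soleus (limma), where 0.0109% of all probe sets were called. None was called in TA either, where 1.68% of all were called. In the average over the muscles 2 of 12 were called, both lower in KO, against 2.88% of all and 1.41% lower: the dimmer probe sets of Jun and Btg2. The estimate was below 0 for 11 of the 12 in soleus, 7 in TA and 10 in the average. These counts include Junb and an Ier5 probe set of low signal. Of the 10 above low signal, 9, 7 and 9 were below 0. The median difference of the 12 was -0.35 in soleus, -0.09 in TA and -0.23 in the average. Over the 10 above low signal it was -0.45, -0.28 and -0.36, and that of all probe sets 0.00, -0.01 and 0.00. The KO and WT groups did not overlap for 4 member probe sets in soleus, where this held for 10.8% of all probe sets, and for 3 in TA, where it held for 20.9%. The 4 were both Btg2 probe sets, the dimmer Jun probe set and an Ier5 probe set of low signal. The 3 were Ier3 and the dimmer probe sets of Jun and Btg2. Without the arrays numbered 3, 0 members were called in the average and 0.153% of all probe sets.

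Btg2 was the member whose soleus groups were farthest apart. The brighter probe set averaged 8.47 ± 0.58 in KO soleus and 9.73 ± 0.11 in WT soleus (SD, n = 3), and all KO soleus arrays were below all WT soleus arrays. The difference was -1.26 (SE 0.52, 2.40-fold, adjusted p = 0.613), and that of the dimmer probe set was -1.05 (SE 0.27, 2.08-fold, adjusted p = 0.283), also without overlap. By array number the brighter differed by -1.28, -0.78 and -1.73 and the dimmer by -0.18, -1.45 and -1.54. In TA the differences were -0.66 (SE 0.52, adjusted p = 0.627) and -0.60 (SE 0.27, adjusted p = 0.334), and the dimmer did not overlap. The average of the dimmer was -0.83 (SE 0.19, 1.77-fold, adjusted p = 0.0497), just past the threshold, and that of the brighter -0.96 (SE 0.37, adjusted p = 0.244). With the replicate number as a block the brighter was called (adjusted p = 0.0438) and the dimmer was not (0.0501). The call of the dimmer held in 5 of 22 alternatives, and in the fits that left out 1 array only without WT soleus replicate 1 or KO TA replicate 1; leaving out any other gave adjusted p of 0.0621 to 0.122, and leaving out the arrays numbered 3 gave -0.67 (adjusted p = 0.280). The difference was below 0 in all of these. In soleus all 9 endothelial markers also had estimates below 0 in KO, with a median of -0.30 and none called, and their summed signal was 11.52 to 12.01 in KO and 11.88 to 12.23 in WT. In TA 8 of the 9 had estimates above 0 in KO. Of the 10 smooth muscle and pericyte markers 9 had estimates below 0 in soleus (median -0.13, none called) and 7 in TA (median -0.16, 1 called). The 1 called was Lmod1, of low signal at means of 2.40 in KO TA and 3.27 in WT TA, and 2.08% of all genes were called there. The summed signal of the 10 markers overlapped between KO and WT, at 14.48 to 14.75 and 14.62 to 14.75 in soleus and 14.43 to 14.64 and 14.35 to 14.69 in TA. The part of these cells in the Btg2 values was not tested.

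The 2 Jun probe sets differed from each other. The dimmer was lower in every KO array than in every WT array of the same muscle, with a mean of 8.59 ± 0.29 against 9.22 ± 0.29 in soleus and 7.95 ± 0.14 against 8.64 ± 0.20 in TA (SD, n = 3). The difference was -0.63 (SE 0.19, adjusted p = 0.398) in soleus, -0.69 (SE 0.19, adjusted p = 0.115) in TA and -0.66 (SE 0.14, 1.58-fold, adjusted p = 0.0346) in the average. By array number it was -0.47, -1.27 and -0.15 in soleus and -0.63, -0.70 and -0.73 in TA. The brighter probe set differed by -0.22 (SE 0.18, adjusted p = 0.940) in soleus, 0.07 (SE 0.18, adjusted p = 0.916) in TA and -0.08 (SE 0.13, adjusted p = 0.830) in the average, and overlapped in both. The lower signal was thus seen with 1 of 2 probe sets and is not given as a change of Jun as a whole. The call of the dimmer held in 9 of 22 alternatives, and in the fits that left out 1 array only without KO soleus replicate 3, WT soleus replicate 3 or WT TA replicate 1. Leaving out any other gave adjusted p of 0.0557 to 0.0825, with differences of -0.69 to -0.58.

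Among the members, Ier3 had the largest KO minus WT difference in TA. The KO TA arrays lay at 6.07 to 6.30, below all WT TA arrays at 6.92 to 8.16, with means of 6.18 ± 0.12 and 7.60 ± 0.63 (SD, n = 3). The difference was -1.42 (SE 0.30, 2.67-fold, adjusted p = 0.0512) and did not pass the threshold. By array number it was -0.75, -1.41 and -2.09. With the replicate number as a block the adjusted p was 0.0284, with the test restricted to the brightest probe set of each gene 0.0383, and without WT TA replicate 1 it was 0.0316 (-1.76). Fitted on the TA arrays alone it was 0.178, and without the arrays numbered 3 the difference was -1.08 (adjusted p = 0.226). In soleus the difference was -0.36 (SE 0.30, adjusted p = 0.950) with overlap, and in the average -0.89 (SE 0.21, adjusted p = 0.0576; 0.0315 with the block). The lymphocyte markers moved with this comparison: their summed signal was 10.65 to 11.08 in WT TA and 7.22 to 8.32 in KO TA. This lay with Ighm, the immunoglobulin mu heavy chain, at a mean of 10.75 in WT TA and 7.24 in KO TA; 1 of the 7 lymphocyte markers had a mean above log2 5 in either group. Of the 15 skeletal muscle markers, 7 had estimates above 0 and 7 below 0 in KO TA, with a median of 0. Only 1 was called, against 2.08% of all genes. This was the fast oxidative myosin Myh2, higher in KO TA by 1.64 (adjusted p = 0.0168). The slow fibre genes Tnni1 and Myh7 differed by 1.65 (adjusted p = 0.144) and 1.89 (adjusted p = 0.481). The fast fibre gene Actn3 ran the other way, at means of 14.50 in KO TA and 15.48 in WT TA, and was not called. The part of these cells and fibres in the Ier3 values was not tested.

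No other member passed the test between KO and WT. Nr4a1 had a KO minus WT difference of -0.53 (SE 0.31, adjusted p = 0.845) in soleus and of -0.39 (SE 0.31, adjusted p = 0.625) in TA, with the KO array below the WT array at all 3 numbers in both muscles. Its average was -0.46 (SE 0.22, adjusted p = 0.376). Ier5 differed by -0.23 (SE 0.26, adjusted p = 0.9998) in soleus and -0.16 (SE 0.26, adjusted p = 0.851) in TA. Ier2 differed by -0.33 (SE 0.29, adjusted p = 0.970) in soleus; its TA value of -0.03 (SE 0.29, adjusted p = 0.983) turned positive on the deposited scale (0.05) and with median centring (0.09). Fos differed by -0.72 (SE 0.63, adjusted p = 0.964) in soleus and 0.19 (SE 0.63, adjusted p = 0.941) in TA. The soleus value of Fos lay with array number 2, where the difference was -1.83, against -0.21 and -0.13 at numbers 1 and 3. In TA the KO array was lower at numbers 1 and 2, by -0.39 and -0.32, and higher at number 3, by 1.28. Egr1 differed by 0.00 (SE 0.78, adjusted p = 0.9998) in soleus and 0.88 (SE 0.78, adjusted p = 0.670) in TA. The TA value of Egr1 was 0.42, 0.18 and 2.05 at numbers 1, 2 and 3, and WT TA replicate 3, at 6.09, lay below every other array of that gene, the next being KO TA replicate 3 at 8.14.

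Whether the effect of KO differed between the muscles was tested as the difference of the 2 effects. None of the 12 members was called (limma), against 0.0145% of all probe sets. The member with the smallest p was Ier3, whose effect in TA minus that in soleus was -1.05 (SE 0.43, adjusted p = 0.928). The median of the 12 was 0.30 and that of all probe sets -0.01. The SEs of 0.25 to 1.102 for the 8 bright genes leave room for large differences, so the comparison does not show that the effects were alike.

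**Figure D3:**
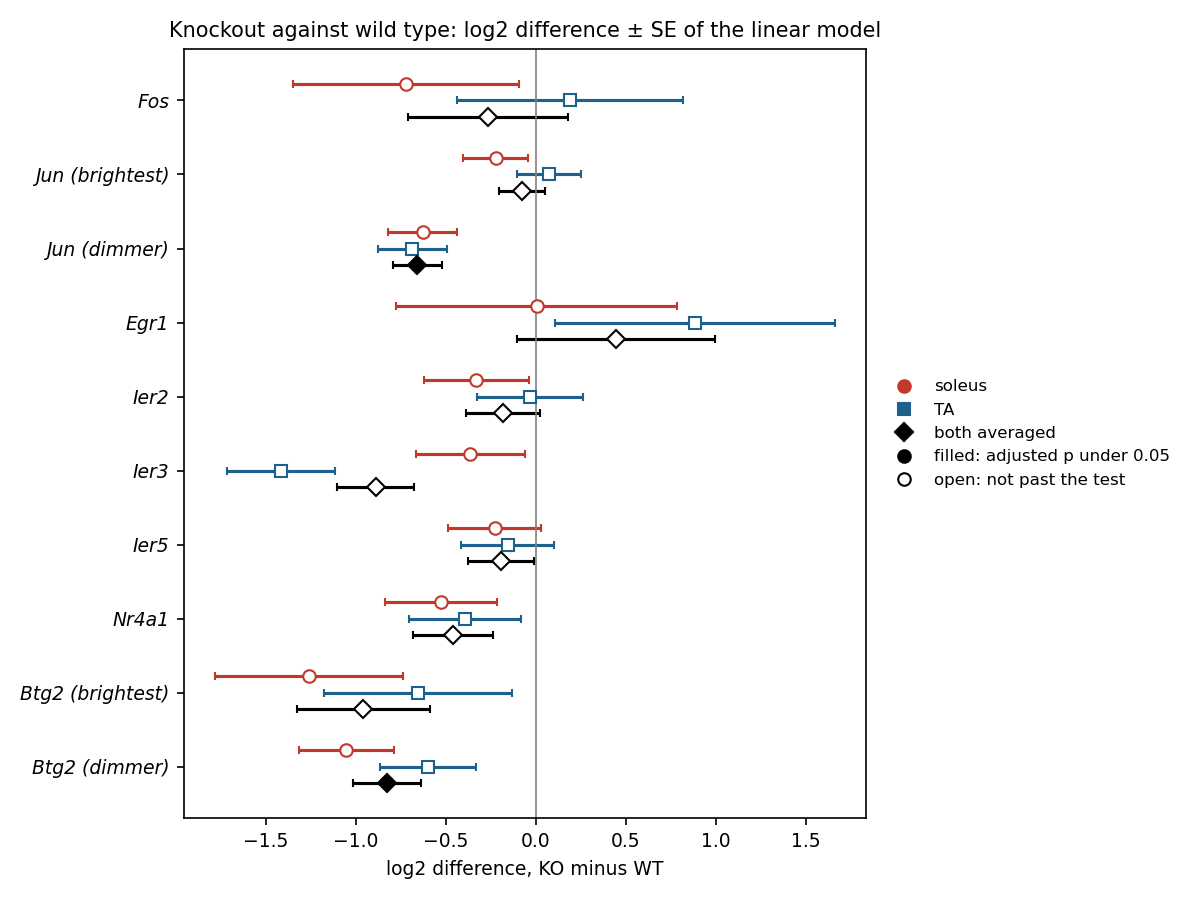
KO minus WT difference (log2, horizontal axis) of the 10 member probe sets above low signal, as estimate ± SE of the linear model, in soleus, in TA and in their average, filled where called. The dimmer probe sets of Jun (-0.66) and Btg2 (-0.83) are filled in the average, and Ier3 in TA lies at -1.42.

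The members differed widely in their spread between replicates. The within-group SD over the 12 arrays (8 residual degrees of freedom) was 1.05 for Egr1, 0.84 for Fos and 0.70 for the brighter Btg2 probe set. Among the 15275 probe sets with a mean log2 above 5, whose median SD was 0.28, these lay at the 98, 95.9 and 93.5 percentiles. Nr4a1 (0.42), Ier3 (0.39), Ier2 (0.38), the dimmer Btg2 probe set (0.34) and Ier5 (0.33) followed at percentiles of 75.8 to 61.7. Jun was below the median of all, with SDs of 0.23 and 0.24. In all, 3 of the 10 member probe sets exceeded the 90th percentile of 0.60. Of the 33 other early genes with such a mean, 5 did, namely Nr4a3, Atf3, Crem, Cebpd and Klf2, and their median SD was 0.36. The SD of Egr1 was 1.57 in WT TA and 0.67 in KO TA, and that of Fos 1.32 and 0.41. WT TA also had the largest SD of the 4 groups for Ier3, Ier5, Nr4a1 and the brighter Btg2 probe set, but not for Ier2, where it was largest in KO soleus, or for either Jun probe set. For the dimmer Btg2 probe set it was smallest in WT TA (0.05) and largest in WT soleus (0.55).

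**Figure D4:**
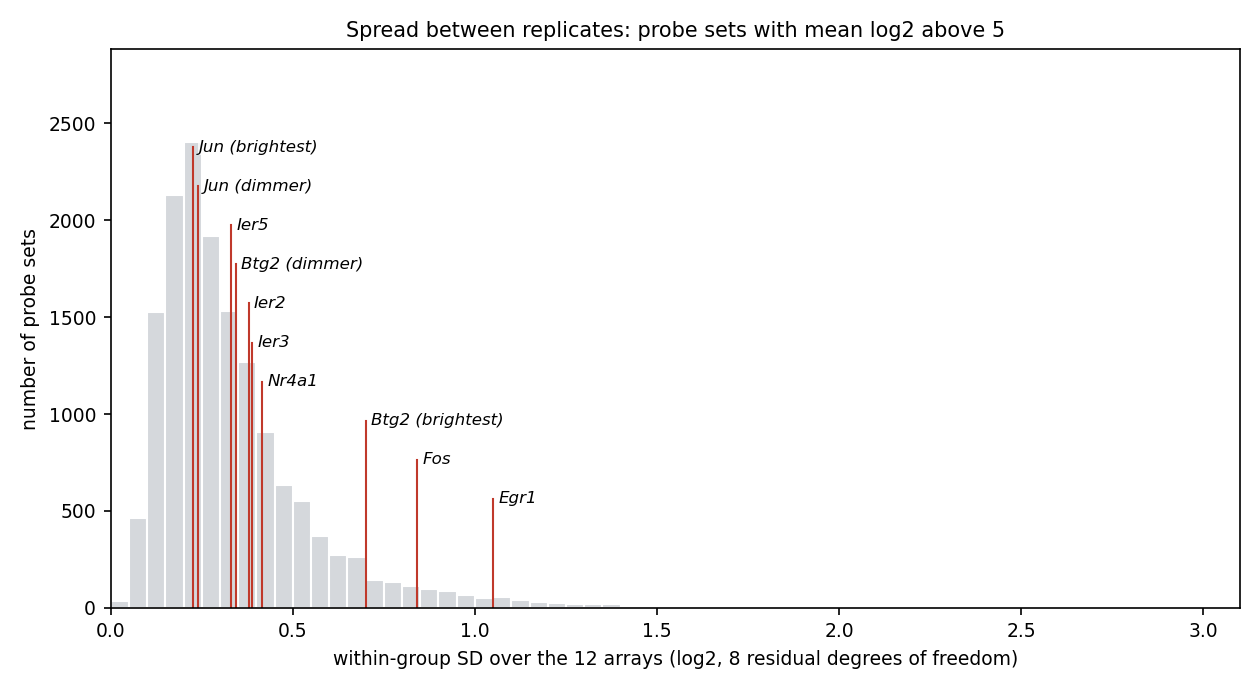
Histogram of the within-group SD (log2, 12 arrays) of the probe sets with a mean log2 above 5, with vertical lines for the 10 member probe sets above low signal; the height of a line has no meaning. Egr1, Fos and the brighter Btg2 probe set lie in the right tail at 1.05, 0.84 and 0.70, and both Jun probe sets lie left of the median of 0.28.

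In several members the spread followed the array number across the groups. Egr1 was highest on array 1 and lowest on array 3 in 4 of 4 groups. Its deviations from the group mean were 0.71 to 1.18 on the arrays numbered 1 and -1.79 to -0.61 on those numbered 3. Ier2 and the brighter Btg2 probe set were lowest on array 3 in 4 of 4 groups, and Fos and Ier5 in 3 of 4. The opposite was seen for Nr4a1 and for the dimmer Jun probe set, each highest on array 3 in 3 of 4 groups. The dimmer Btg2 probe set was lowest on array 3 in 0 groups, so that the 2 Btg2 probe sets differed here. Over the 8 brightest member probe sets and 4 groups, array 3 was the lowest of its group in 20 of 32 values, array 1 in 8 and array 2 in 4. The mean deviation of the 8 was -0.20, -0.29, -0.23 and -0.47 on the arrays numbered 3 in the order KO and WT soleus, then KO and WT TA, and 0.05 to 0.37 on the other arrays. As the second principal component separated the same arrays, the members share this with many probe sets. Without them the median SD of the 8 fell from 0.40 to 0.33. No source used here says what set the arrays numbered 3 apart.

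**Figure D5:**
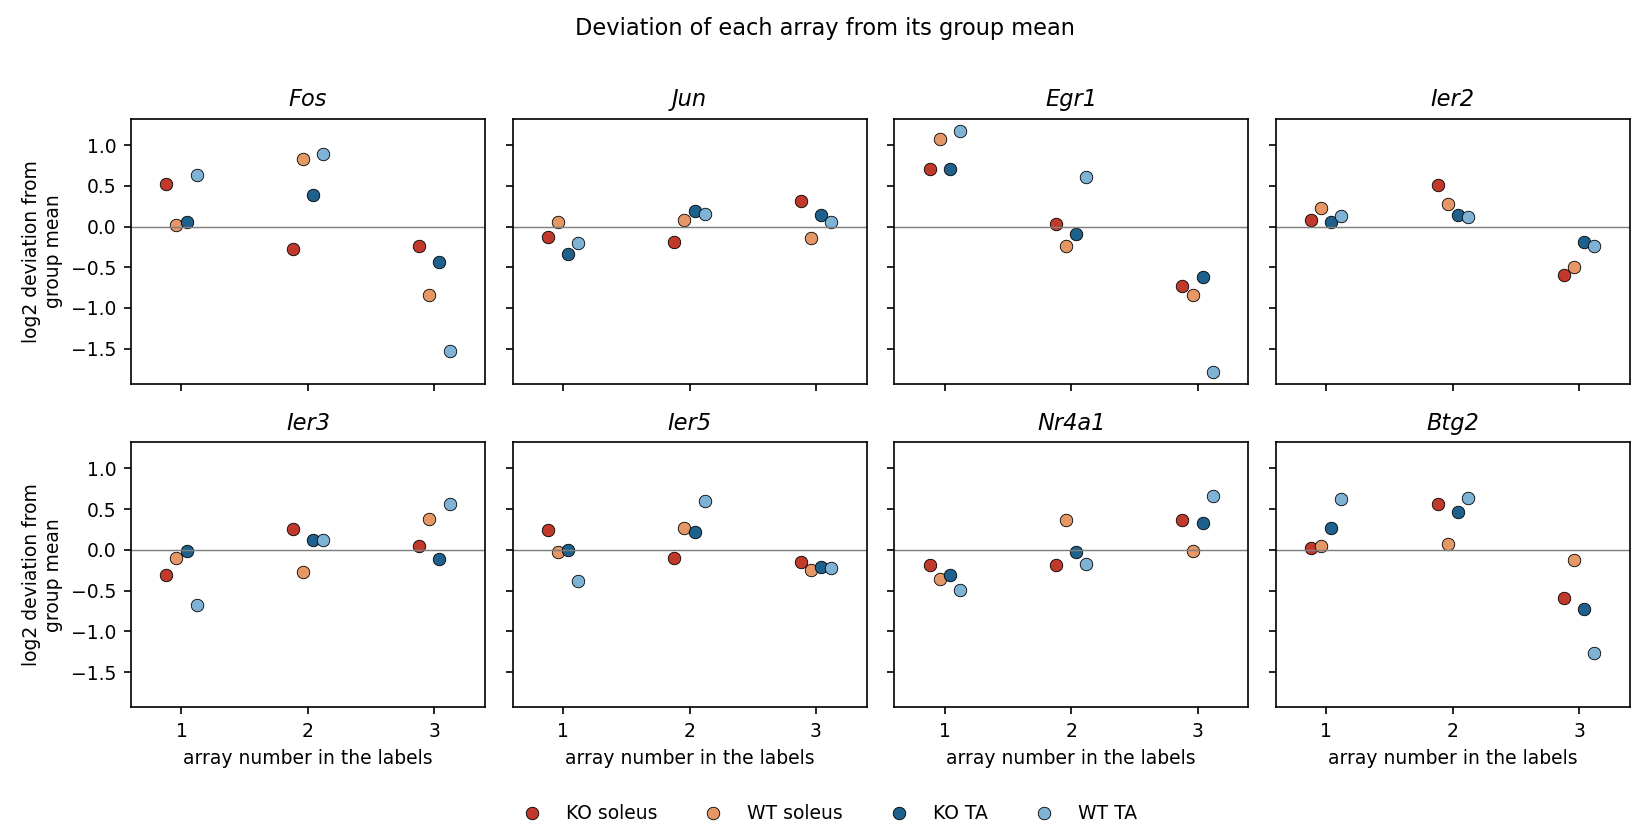
Deviation of each array from its group mean (log2, vertical axis, same scale in all panels) by the replicate number of the labels (horizontal axis), for the brightest probe sets of the 8 genes above low signal, with a colour for each group. Egr1, Ier2 and Btg2 lie below 0 on the arrays numbered 3 in all 4 groups, and Nr4a1 lies above 0 there in all groups but WT soleus.

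Genes like the mean of the 8 members, or like Fos, were sought among 8556 others with a mean log2 above 5. Likeness was the Pearson correlation of the pattern over 12 arrays after the group means were subtracted. Between single members it ran from -0.906 (Egr1 and Nr4a1) to 0.781 (Egr1 and Btg2), so the mean does not stand for each member. The arrays share their numbering, so the values are a description. For the mean of the 8 members the highest were Spag7 (r = 0.968), Phax (0.964), Tfg (0.959), Pnisr (0.948), Ptges3l (0.944), Snx2 (0.943), Ushbp1 (0.936) and Abcg1 (0.936). For Fos alone they were Abcg1 (0.955), Cd164 (0.946), 2700038G22Rik (0.935), Klhl5 (0.928), Nedd4 (0.926), Tmem165 (0.921), Tm6sf1 (0.915) and Ptges3l (0.911). Of each set of 8, 0 were in the list of other early genes, but only 33 of that list had a mean log2 above 5. With so few, the count of 0 does not show that early genes differed from the members. The correlation of the 33 with the mean of the 8 members ran from -0.908 (Cebpd) to 0.906 (Zfp36l1).

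A list of 52 other immediate and delayed early genes was read beside the members, of which 45 were tested. Its genes were chosen with earlier results of these data known. Between KO and WT, 0 were called in soleus (0.00769% of all 13008 genes) and 1 in TA (2.08% of all). This was Gadd45g, a stress-induced regulator of MAP kinase signalling. It lay at 7.41, 7.42 and 7.68 in KO TA and at 9.54, 9.57 and 9.73 in WT TA, a difference of -2.11 (SE 0.27, adjusted p = 0.0121). Its soleus difference was -0.99 (SE 0.27, adjusted p = 0.345). In the average 3 were called (3.66% of all genes), namely Gadd45g at -1.55 (adjusted p = 0.0078), the serum- and glucocorticoid-inducible kinase gene Sgk1 at -0.92 (adjusted p = 0.0211) and the TGF-beta inducible factor Klf10 at 0.91 (adjusted p = 0.0251). The Sgk1 call was lost without WT soleus replicate 3 or KO TA replicate 2 or 3 (adjusted p = 0.0531 to 0.0609). The Klf10 call was lost without replicate 2 or 3 of KO soleus, WT soleus or KO TA, or replicate 1 or 2 of WT TA (adjusted p = 0.0511 to 0.0706). Without the arrays numbered 3 none of these was called, with adjusted p of 0.0531 for Gadd45g in TA and of 0.0541 to 0.133 in the average. With the replicate number as a block, 4 of the list were called in TA and 6 in the average. The block raised the share of all probe sets called there from 1.68% and 2.88% to 4.35% and 6.59%. The Ighm and Myh2 differences given with Ier3 lie in the same TA arrays, and their part in the Gadd45g values was not tested. For the difference of the 2 effects 0 were called (0.0231% of all genes). The median KO minus WT difference of the 45 was 0.01 in soleus and -0.04 in TA.

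Between the muscles, 5 of the 45 were higher in WT soleus and 3 lower (8.64% of all genes), and 4 and 1 in KO (7.09%). In the average 7 were higher and 6 lower (19.0%). With the block 12, 14 and 22 were called in these 3 comparisons, and 13.4%, 11% and 24.9% of all probe sets. Without the block 6.91%, 5.33% and 15.2% of all probe sets were called. These shares are of probe sets and are not comparable with the shares of genes. The matrix protein genes Ccn2 (2.65, SE 0.31, adjusted p = 0.0005) and Ccn1 (0.80, SE 0.15, adjusted p = 0.0060), the survival gene Mcl1 (0.57, adjusted p = 0.0006) and the Btg2 relative Btg1 (0.68, adjusted p = 0.0041) were higher in soleus. Sgk1 was lower (-1.05, adjusted p = 0.0025). Ccn2 lay at 10.04 to 11.21 and 9.84 to 10.67 in KO and WT soleus and at 6.42 to 7.60 and 7.59 to 8.81 in KO and WT TA. Gadd45g (-1.44, adjusted p = 0.0142) and Homer1 (-0.78, adjusted p = 0.0175) were lower in WT soleus. The WT call of Gadd45g was lost without WT soleus replicate 1 (adjusted p = 0.0617) or 2 (0.0552), and that of Homer1 without WT soleus replicate 1 (0.0727) or WT TA replicate 3 (0.0510). Homer1 has 4 other kept probe sets, and 1 or more of them was called lower in KO TA (smallest adjusted p = 0.0336), unlike the brightest (-0.34, adjusted p = 0.349). Atf3, an AP-1 partner picked out after its values were seen, was higher in soleus in the average, by 2.84 (SE 0.52, adjusted p = 0.0063).

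Of 35 kinases and factors that act upstream of immediate early transcription, 31 had a probe set and 30 were tested. Between KO and WT, 0 were called in soleus (0.00769% of all genes) and 1 in TA (2.08%), Rhoa, a small GTPase upstream of serum response factor. It was higher in KO TA, with means of 11.08 and 10.18, by 0.90 (SE 0.13, adjusted p = 0.0147) and on its other kept probe set by 0.97 (adjusted p = 0.0121). In soleus it differed by 0.08 (SE 0.13, adjusted p = 0.9998). The TA call of Rhoa was lost without KO TA replicate 2 (adjusted p = 0.0596) or replicate 3 (0.0509), and without the arrays numbered 3 (0.83, adjusted p = 0.129). The part of the Ighm and Myh2 differences in it was not tested. Between the muscles, 1 of 30 was higher and 6 were lower in WT soleus (8.64% of all genes), 0 and 4 in KO soleus (7.09%) and 1 and 10 in the average (19.0%). With the block 3 were called between KO and WT in TA and 11 between the WT muscles. There 4.35% and 13.4% of all probe sets were called, against 1.68% and 6.91% without the block. Those lower in the average included the calcineurin subunits Ppp3ca (-0.60, adjusted p = 0.0011) and Ppp3cb (-0.75, adjusted p = 0.0018) and the kinases Camk2a (-2.59, adjusted p = 0.0027), Mapk14 (-0.78, adjusted p = 0.0030), Map2k1 (-0.56, adjusted p = 0.0032) and Map2k2 (-0.88, adjusted p = 0.0039). The other probe sets of Ppp3cb did not all run this way, with differences of -0.59 to 0.49. Serum response factor itself and Creb1 were not called in any of these comparisons.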

How the data were processed

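The deposited table held log2 expression values of 45101 probe sets on 12 arrays, 0.889 to 16.36 with 0 missing; total RNA was the source, per the labels' protocols. MAS5 is named in the submitters' processing notes without a role, and the background correction, summary method and any later scaling behind the log2 values are not given in the sources used here. All columns were mapped to samples by their labels. The members and the gene lists were chosen with earlier results of these data known.

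The 2% trimmed means of the arrays differed by up to 1.11-fold, above a limit of 1.1, so the deposited log2 values were quantile normalized. No pseudocount was added. Probe sets above the 40th percentile (log2 2.76) on at least 3 arrays were kept, 27497 in all. A model with 4 group means was fitted to all 12 arrays with limma 3.58.1 (R 4.3.3; lmFit, eBayes with a variance trend, 8 residual degrees of freedom), and 7 comparisons were adjusted by Benjamini-Hochberg over all kept probe sets. Genes were named from probe sets with 1 symbol (34945; 932 had several and 9160 none, and 64 were controls), and lists used the brightest probe set of a gene (13008 genes).

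The genes named are every member probe set; in each of the 2 lists, up to 6 genes past the test per comparison by p; the 8 genes most correlated with the members' mean and with Fos; and H6pd. Where no list gene passed, the 3 with the smallest p are given in the closing section. Tested on simulated data for KO against WT in TA over 27497 probe sets, the fit recovered 44% of probe sets changed by a log2 difference of 1 and 88% of those changed by 2, with 7 false calls. Replicates that were labelled biological are taken as separate mice, and otherwise p-values measure only the spread between these samples. The labels do not say whether equal numbers share a mouse or a day. Arrays of equal number deviated together, with correlations of 0.309 to 0.628 between the TA groups, 0.449 to 0.661 between the KO muscles and 0.155 to 0.607 between the WT muscles, so the number was used as a block there; between the soleus groups, at 0.0741 to 0.659, this did not hold for number 2. Alternatives changed the scaling, filter, offset (32), variance model, array weights, samples fitted and block, and left out each array or the arrays numbered 3.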

Additional observations from a re-analysis of the deposited data

How the results depend on the processing

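Of 1396 refits of single member differences, 1269 kept direction and side of the threshold, 59 lost a call, 19 gained one and 49 reversed. None of the reversed differences was called. Ier2 between KO and WT in TA was 0.049 as deposited and 0.095 with median centring; between the KO muscles it was 0.073 as deposited, 0.085 with median centring, 0.11 with array weights and 0.16 without the arrays numbered 3. The difference of the KO effects for the dimmer Jun probe set was 0.033 with median centring, 0.25 with weights and 0.21 without the arrays numbered 3. Egr1 between KO and WT in soleus was -0.0020 with an offset of 32 and -0.048 without the arrays numbered 3, and Fos in TA was -0.14 with weights and -0.35 without those arrays.

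Leaving out 1 array gave ranges that crossed 0 for KO against WT in soleus for Egr1 (-0.42 to 0.54); in TA for Fos (-0.57 to 0.64), Jun (-0.031 to 0.24), Egr1 (-0.010 to 1.47), Ier2 (-0.15 to 0.063) and Ier5 (-0.35 to 0.14); and in the average for Jun (-0.15 to 0.0070) and Egr1 (-0.0035 to 0.74). Between the muscles this held for Egr1 (-0.11 to 0.61) and Ier2 (-0.30 to 0.25) in KO and for Ier2 (-0.027 to 0.25) and Ier3 (-0.049 to 0.26) in the average. For the difference of the KO effects it held for the dimmer Jun (-0.22 to 0.075), Egr1 (-0.013 to 1.47), Ier5 (-0.12 to 0.37), Nr4a1 (-0.11 to 0.46) and the brighter Btg2 (-0.028 to 0.97).

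Between KO and WT in the average, 2 members were called. This count became 0 as deposited, with median centring, without the filter and without the arrays numbered 3. It became 1 with the offset, with the brightest probe set per gene and with robust variances (0 to 2 without 1 array). It rose to 3 with a mean log2 above 5 and with the replicate block. In TA, 0 became 1 with a mean log2 above 5, with the brightest probe set and with the replicate block (0 to 1). Between the WT muscles 3 became 5 with weights or the replicate block and 0 with only the WT arrays (2 to 3); between the KO muscles 2 became 1 without the arrays numbered 3 (1 to 2); and in the average 6 ranged from 4 to 7 over all alternatives (7 with weights or the replicate block; 4 to 6 without 1 array). No alternative gave a called member between KO and WT in soleus or for the difference of the KO effects. The block changed no other member call than those given above.

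Over all probe sets, KO against WT called 3 in soleus (0 to 194 over the alternatives), 462 in TA (4 to 1196; 49 without the arrays numbered 3) and 793 in the average (42 to 1811); the difference of effects called 4 (0 to 23), and the muscle comparisons 1901 (752 to 4237) in WT, 1466 (663 to 3033) in KO and 4180 (2863 to 6851) in the average. The split into higher and lower moved with the scaling: in TA 219 and 243 became 275 and 202 as deposited and 385 and 139 with median centring. In the KO average 405 and 388 became 534 and 266 with centring. Between the muscles, 795 and 1106 in WT became 1299 and 655 with centring, 699 and 767 in KO became 845 and 585 as deposited, and 1835 and 2345 in the average became 2457 and 1828 as deposited and 2700 and 1258 with centring. Probe sets near the floor, Junb and 2 of Ier5, limit what can be said of those transcripts.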

Other observations

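Other early genes also followed the array number in all 4 groups. Cebpd, an inflammatory and stress-responsive transcription factor, lay at 7.06, 6.94 and 7.74 in KO soleus, 7.71, 7.44 and 9.41 in WT soleus, 7.25, 6.91 and 7.51 in KO TA and 8.11, 8.35 and 10.19 in WT TA, highest on array 3 each time. Its relative Cebpb was likewise highest on array 3, at 10.68, 10.997, 10.05 and 10.50, against 9.36 to 10.08 on the other arrays, and so was Klf6, at 9.11, 9.51, 9.32 and 9.28. Crem, a cAMP-responsive repressor gene, was lowest on array 3, at 7.59, 6.77, 6.38 and 6.45, against 7.04 to 9.32 on the other arrays. The phosphatase gene Dusp1, which acts on MAP kinases, was lowest there too, at 10.84, 11.22, 10.47 and 10.90. Egr1, Ier2 and the brighter Btg2 probe set were thus lowest on the same arrays on which Cebpd, Cebpb and Klf6 were highest. These genes were picked out after their values were seen.

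In the comparisons in which no gene of a list passed the test, the smallest p-values were as follows (limma, adjusted by Benjamini-Hochberg). Between KO and WT in soleus they were those of Gadd45g (-0.99, adjusted p = 0.345), Sgk1 (-0.81, 0.354) and Klf10 (0.78, 0.401) among the other early genes, and of Mef2c (-0.34, 0.572), Ppp3ca (0.24, 0.680) and Mef2d (-0.34, 0.851) among the upstream genes. For the KO effect in TA minus that in soleus they were those of Gadd45g (-1.13, 0.880), Ccn2 (-1.47, 0.928) and Ccn1 (-0.68, 0.928), and of Rhoa (0.81, 0.477), Mapk8 (0.56, 0.928) and Map2k1 (0.39, 0.928).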
